A study of Mus musculus with 4 samples.

Results

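Narrow H2A.Z peaks that appeared in Anp32e knockout fibroblasts close to, but not touching, a site already called in wild-type fibroblasts are described here. H2A.Z is a variant of histone H2A that replaces it in some nucleosomes, mostly at promoters and enhancers, where it often sits in the nucleosomes beside an open stretch of DNA. It is placed by the SRCAP and p400 remodelling complexes. ANP32E is a chaperone, a protein that binds histones outside the nucleosome, and it binds H2A.Z and takes it off chromatin. The study asked where H2A.Z lies when that chaperone is missing. A peak is a stretch of genome where immunoprecipitated DNA is enriched, so each of these peaks is H2A.Z signal that passed the threshold of the peak caller in the knockout library alone, beside a site that passed it in the wild type.

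The peaks were chosen by 3 measured values, all taken from the 2 peak lists that are compared. A knockout peak had to share no base with any wild-type peak, had to be narrower than 2000 bp, and had to lie at most 5000 bp from the nearest wild-type peak, measured from edge to edge. Of 41912 knockout peaks, 3299 met all 3 conditions, or 7.87% (95% interval 7.62 to 8.13%). They are a subset of 11759 knockout-only peaks, which made up 28.1% of the knockout list, and of 10380 narrow knockout-only peaks, which made up 44.6% of all knockout peaks under 2000 bp. These extra peaks, as they are named from here on, covered 4.76 Mb, which was 26.4% of the 18.01 Mb in knockout-only peaks. These numbers, the widths and the gaps follow from the choice and are given as a description.

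Both genotypes came from crosses of Anp32e+/- mice on a C57BL/6 background. The wild-type (Anp32e+/+) and knockout (Anp32e-/-) cells were embryonic fibroblasts from the torsos of embryos at embryonic day 10.5, used between passages 5 and 10 and sequenced as single reads of 50 bases. The number of embryos behind each library is not stated in the labels. Each genotype has 1 H2A.Z library, with a peak list, and 1 input library, not analysed here. The wild-type list holds 37667 peaks, and both lists cover 19 autosomes and the X.

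Since neither genotype was replicated, no test between genotypes or between sets of peaks was made. The lists hold positions alone, so depth and the strength of a peak are unknown, and a site just under the threshold of the peak caller in one library cannot be told apart from a site without H2A.Z. The lists hold no expression values either, so neither the fibroblast identity nor the loss of Anp32e could be checked against marker genes. Every 95% interval is an exact binomial one that covers counting error over peaks, treats neighbouring peaks as independent and says nothing of variation between cultures. Genes and sequences at the peaks were not analysed here, since the peaks are on the mm9 build and the reference at hand is on another.

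The arrangement is seen best in single regions, which are given on mm9 with the first base of a chromosome numbered 1. The tightest fit between 2 wild-type sites was on chromosome 1. There a knockout-only peak of 1013 bp, from 171847781 to 171848793, lay 260 bp above one wild-type peak and 296 bp below the next. The lower wild-type peak, 1087 bp wide at 171846434 to 171847520, was 1258 bp wide in the knockout. The extra peak thus stood in a gap between sites that were both present in wild-type cells. The second of these tight cases was a peak of 1923 bp on chromosome 2, 37641164 to 37643086, with gaps of 498 and 172 bp. The third was a peak of 1153 bp on chromosome 8, 10966059 to 10967211, with gaps of 186 and 487 bp.

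Some wild-type sites had several extra peaks around them. On chromosome 1 the wild-type peak at 184038127 to 184039376, 1250 bp wide, was the nearest wild-type peak of 3 knockout-only peaks. One of 1701 bp lay 4820 bp below it, one of 1609 bp lay 1978 bp above it, and one of 1375 bp lay 4555 bp above it. The site itself was 1816 bp wide in the knockout. A peak of 2054 bp on chromosome 2, at 143728759 to 143730812, likewise had 3 such peaks, at gaps of 2439, 410 and 3714 bp. On chromosome 3 the peak at 107594292 to 107595403 had 3 as well, at gaps of 2988, 1169 and 422 bp, although no knockout peak overlapped this wild-type site. In all, 6 wild-type peaks were nearest to 3 of the extra peaks, 214 of the 3079 distinct neighbours (6.95%) to 2 or more, and 124 (4.03%) had an extra peak on each side.

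The widest neighbouring sites were far broader than the peaks beside them. A wild-type peak of 6475 bp on chromosome 15, 101195336 to 101201810, had a knockout-only peak of 1518 bp (101192390 to 101193907) 1428 bp away. This broad site was slightly narrower in the knockout, at 6304 bp. A wild-type peak of 6310 bp on chromosome 1, 167973585 to 167979894, was 7009 bp wide in the knockout and had an extra peak of 1449 bp at a gap of 1264 bp. The second widest neighbour, 6442 bp at chromosome 6, 136413917 to 136420358, had an extra peak of 1355 bp at a gap of 3233 bp.

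**Figure D1:**
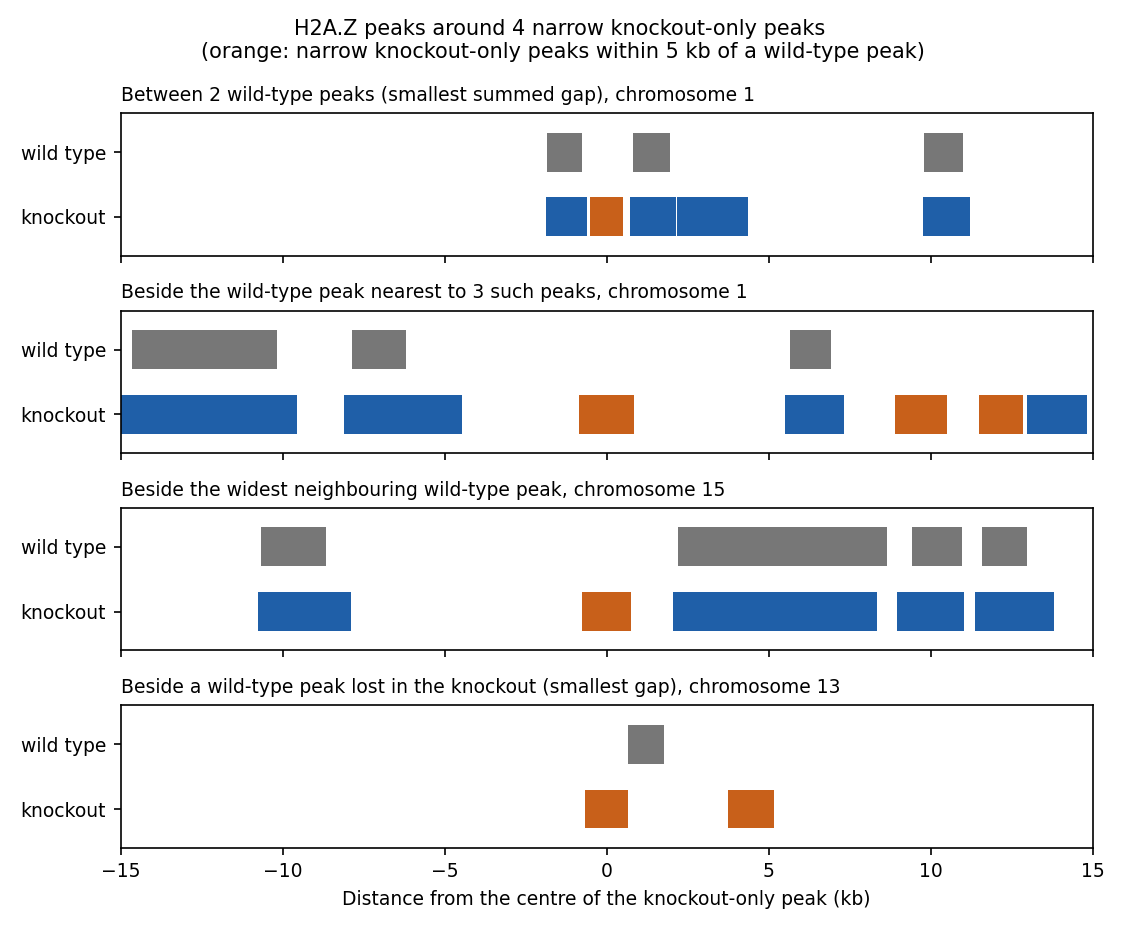
Peaks of both lists within 15 kb of the centre of 4 narrow knockout-only peaks, drawn to scale in kb, with wild-type peaks in grey, knockout peaks in blue and narrow knockout-only peaks within 5 kb of a wild-type peak in orange. The top map shows gaps of 260 and 296 bp on both sides of the central peak, and in the lowest map the grey wild-type peak has no knockout peak under it.

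Some extra peaks almost touched a wild-type site. The smallest gap was 2 bp, on chromosome 13, where the knockout peak ended at 104434784 and the wild-type peak began at 104434787. The next were 3 bp on chromosome 16, for the peak from 33176993 to 33178130, and 5 bp on chromosome 4, for the peak from 88523531 to 88524723. Such abutting peaks were a minority, as 189 of 3299 (5.73%) lay within 250 bp. Over all of the extra peaks the median gap was 2029 bp (quartiles 976.5 and 3369 bp).

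At the limits of the choice, peaks on either side differed by a few bases. The largest gap inside was 4999 bp, at chromosome 2, 68973115 to 68974794, and at chromosome 5, 123713291 to 123714670, followed by 4994 bp at chromosome 1, 92056180 to 92057603. Just outside were gaps of 5001, 5003 and 5007 bp, at peaks with first bases 85952914 (chromosome 3), 113652561 (chromosome 11) and 89423294 (chromosome 1). The widest peaks inside were 1998, 1997 and 1997 bp, with first bases 60052607 (chromosome 10), 109749642 (chromosome 8) and 98696126 (chromosome 13). Just outside were knockout-only peaks of 2000 bp at 98196248 on chromosome 8 and of 2002 bp at 31314557 and 113586550 on chromosome 5. The narrowest were 511 bp on chromosome 1, from 58056239, 607 bp on chromosome 3, from 98027583, and 624 bp on chromosome 16, from 77331121. Beyond the width limit lay 511 wider knockout-only peaks that also had a wild-type peak within 5 kb.

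The width of the extra peaks varied little with the gap and more between chromosomes. Their median width was 1413 bp (quartiles 1285.5 and 1604 bp), against 1371 bp for the 7081 narrow knockout-only peaks that were further than 5 kb from a wild-type site. Knockout peaks under 2000 bp that overlapped a wild-type peak, called narrow shared peaks from here on, had a median of 1580 bp. From gaps under 1 kb to gaps of 4 to 5 kb the median width of the extra peaks ran between 1406 and 1430 bp. By chromosome it ran from 1297 bp on the X and 1316 bp on chromosome 6 to 1518 bp on chromosome 15. Width was nearly unrelated to the gap (Spearman rho 0.04 over 3299 peaks) and to the width of the neighbouring wild-type peak (rho 0.01). The peaks share a single library, so both values are descriptions.

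Nearness to a wild-type site was more frequent among narrow shared peaks than among narrow knockout-only peaks. Of the 10380 narrow knockout-only peaks, 31.8% had a wild-type peak within 5 kb (95% interval 30.9 to 32.7%). Of 12877 narrow shared peaks, 4975 had a further wild-type peak within 5 kb that did not overlap them, or 38.6% (95% interval 37.8 to 39.5%). The share was lower for the knockout-only peaks on 16 of the 20 chromosomes and higher on the other 4, with a median difference of -4.70 percentage points. For the 1379 knockout-only peaks of 2000 bp or more the share was 37.1%.

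Width moved with this share. Among knockout-only peaks it rose from 21.5% of those under 1000 bp to 26.0% at 1000 to 1249 bp, 32.6% at 1250 to 1499 bp, 35.5% at 1500 to 1749 bp and 36.2% at 1750 to 1999 bp. Among shared peaks of the same widths the shares were 28.5%, 35.3%, 39.6%, 40.02% and 37.9%. The knockout-only share was the lower one in each of the 5 classes, and the intervals overlapped in the narrowest and the widest class.

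**Figure D2:**
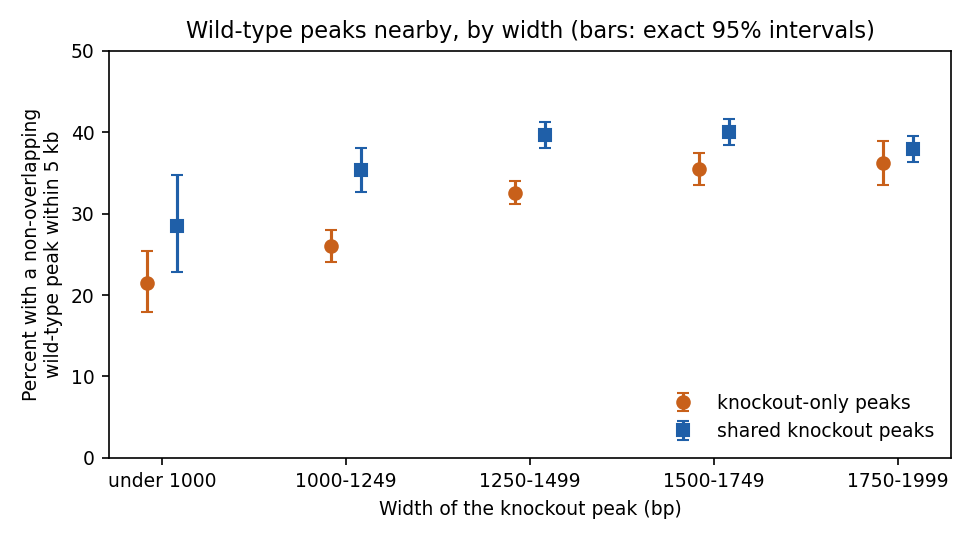
Percent of knockout peaks that have a wild-type peak within 5 kb without overlapping it, by width of the knockout peak in bp, for knockout-only (orange) and shared (blue) peaks, with exact 95% intervals as bars. Both sets have their lowest shares under 1000 bp (21.5% and 28.5%), and the points are closest at 1750 to 1999 bp (36.2% and 37.9%).

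Within 5 kb the gaps of the 2 sets had similar spreads. The median gap was 2029 bp for the extra peaks (95% interval 1956 to 2142 bp) and 1908 bp for the 4975 narrow shared peaks (95% interval 1842 to 1969 bp), so the intervals overlapped. Gaps of up to 1 kb made up 25.6% of the extra peaks and 27.8% of the shared ones. The number per 500 bp was lower at the far end than at the near end in both sets, with 437 extra peaks under 500 bp and 222 between 4500 and 5000 bp, and 658 and 340 shared peaks. The fall was not steady, since extra peaks rose from 289 to 328 between the classes from 2000 and from 2500 bp, and shared peaks from 658 to 724 in the second class. On 15 of 20 chromosomes the median gap was the larger one for the extra peaks, by a median of 127 bp.

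**Figure D3:**
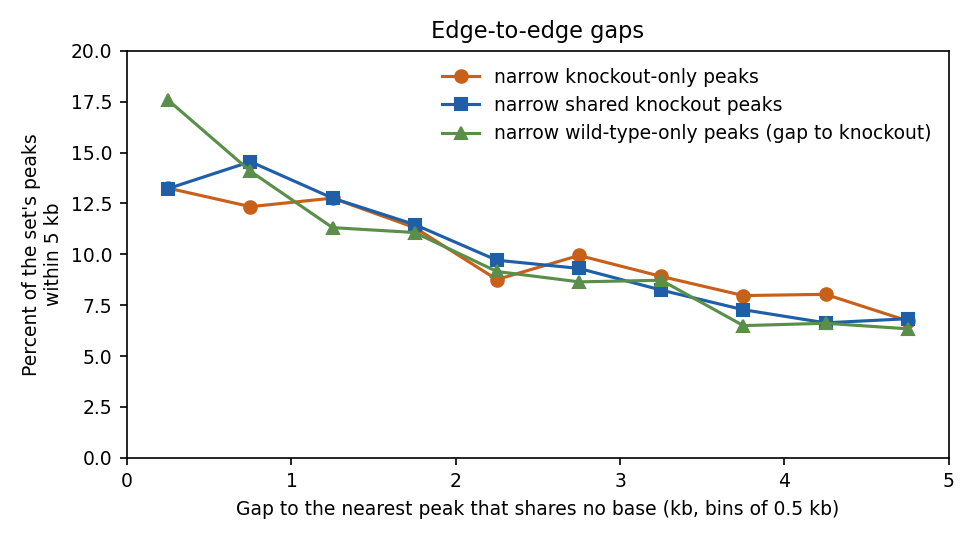
Percent of each set's peaks within 5 kb, in bins of 500 bp of the edge-to-edge gap in kb, for narrow knockout-only peaks (orange), narrow shared knockout peaks (blue, gap to a further wild-type peak) and narrow wild-type-only peaks (green, gap to a knockout peak). In the first bin the shares are 13.3%, 13.2% and 17.6%, and in the last all 3 lie between 6.34% and 6.83%.

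Most of the extra peaks had a near wild-type site on one side alone. There were 535, or 16.2% (95% interval 14.97 to 17.5%), with wild-type peaks within 5 kb on both sides, against 20.7% of the narrow shared peaks with a near neighbour (95% interval 19.5 to 21.8%). The share was lower for the extra peaks on 16 of 20 chromosomes. The 535, with a median width of 1428 bp, lay in gaps between wild-type peaks with a median length of 6152 bp. Both flanking sites overlapped a knockout peak for 409 of the 535, a single site for 117 and neither for 9. Over all wild-type peaks, taken singly, 81.7% overlapped a knockout peak. No background for pairs of sites is given here, so these counts are a description. For the extra peaks as a whole, the nearest wild-type peak on the other side was a median of 16199 bp away. Their placing showed little preference for a side, since 52.2% lay at higher coordinates than the neighbour (95% interval 50.5 to 53.9%).

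The surroundings were rich in H2A.Z sites, as the choice of a near neighbour requires. Within 50 kb of their centres the extra peaks had a median of 5 wild-type peaks and the remote narrow knockout-only peaks had 2. The median was 4 for narrow shared peaks in general and 7 for those with a near neighbour, and both of these counts include the wild-type peak that the shared peak overlaps. The medians of other knockout peaks within 50 kb were 6 for the extra peaks, 6 for narrow shared peaks with a near neighbour and 3 for remote peaks.

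Spacing within the knockout list differed little between the sets, and not in a steady direction. The gap to the nearest other knockout peak had a median of 1950 bp for the extra peaks (95% interval 1837 to 2055 bp) and 2032 bp for narrow shared peaks with a near wild-type neighbour (95% interval 1939 to 2118 bp). By chromosome the order was the other way more often, with the larger median for the extra peaks on 13 of 20 and a median difference of 105.5 bp. Narrow shared peaks in general had a median of 6762 bp, and remote narrow knockout-only peaks 12016 bp. The former had no gap limit, and the latter were chosen to lie over 5 kb from any wild-type peak. Most neighbours of extra peaks also had a knockout peak. The shorter gap of the extra peaks, and how many had a knockout peak within 5 kb, thus follow largely from the choice. Another knockout peak lay within 5 kb of 2935 extra peaks (89.0%), against 86.3% of the narrow shared peaks with a near neighbour. For 2772 of the 2935 it was, on at least one side, a peak shared with the wild type. Another knockout-only peak lay within 5 kb of 506 extra peaks, or 15.3%, against 10.7% of the narrow shared peaks with a near neighbour (530 of 4975).

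The sites beside the extra peaks mostly had a peak in the knockout too. Of the 3079 distinct neighbours, 2575 shared at least 1 base with a knockout peak, which is 83.6% (95% interval 82.3 to 84.9%). Over all wild-type peaks the share was 81.7%, and over the 4707 neighbours of narrow shared peaks it was 79.5% (95% interval 78.3 to 80.6%). It was 84.2% for the sites nearest to remote narrow knockout-only peaks. The neighbours of extra and of narrow shared peaks had 268 wild-type peaks in common. By chromosome the share was higher beside extra peaks than beside shared ones on 14 of 20, by a median of 1.64 percentage points, and it exceeded that of all wild-type peaks on 10 and fell below it on 10. Wild-type sites beside extra peaks were thus kept about as often as wild-type sites in general.

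A smaller group of extra peaks lay beside a site that was absent from the knockout list. There were 538 such peaks (16.3%), beside 504 wild-type sites. Among those with the smallest gaps, the chromosome 13 peak of 1320 bp at 104433465 to 104434784 lay 2 bp from a wild-type peak of 1095 bp, and the chromosome 4 peak of 1193 bp lay 5 bp from one of 1236 bp. A peak of 1706 bp on chromosome 5, 140033584 to 140035289, lay 11 bp from a wild-type peak of 1200 bp. At the other end, gaps of 4988 and 4985 bp separated peaks on chromosome 13, starting at 52142577 and 97450960, from wild-type sites of 1095 and 939 bp. The third was a gap of 4980 bp on chromosome 15, for the peak starting at 78378187.

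Over the whole group the median gap was 1912 bp (95% interval 1675 to 2163 bp), against 2069 bp beside kept sites (95% interval 1968 to 2179 bp). Their centres lay a median of 3252 bp from the centre of the absent site, and 445 of the 538 were the nearest knockout peak to it. Each was chosen to lie within 5 kb of a site that no knockout peak overlapped. Both values thus follow largely from the choice and are given as a description. Widths were alike, at 1399.5 bp beside absent and 1415 bp beside kept sites. The absent sites were narrow, with a median of 1123 bp (quartiles 989 and 1279 bp), close to the 1131 bp of all wild-type peaks without a knockout partner.

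The neighbouring wild-type peaks were somewhat narrower than wild-type peaks in general. Their median width was 1519 bp (95% interval 1486 to 1546 bp), compared with 1570 bp beside narrow shared peaks (95% interval 1548 to 1599 bp), 1550 bp for the sites nearest to remote narrow knockout-only peaks and 1641 bp over all wild-type peaks. Among kept neighbours the medians were 1643 bp beside extra peaks and 1784 bp beside shared ones, and among absent neighbours they were 1123 and 1134.5 bp. By chromosome the order was not steady, since the neighbour was the narrower one beside extra peaks on 11 of 20 chromosomes and the wider one on 9. The differences ran from -305 bp on chromosome 14 to 106 bp on chromosome 15.

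The kept sites themselves were wider in the knockout, and more so beside extra peaks than beside shared ones. For 2462 neighbours, a single wild-type peak overlapped a single knockout peak and no other, so that their widths could be paired. Their median width was 1644 bp in the wild type and 2089.5 bp in the knockout, and within pairs the median gain in width was 298 bp (95% interval 285 to 312 bp). It was 199 bp for 3560 paired neighbours of narrow shared peaks (95% interval 190 to 207 bp) and 215 bp over all 28979 pairs. The knockout peak was the wider one at 2100 of the 2462 neighbours, or 85.3% (95% interval 83.8 to 86.7%). The share was 79.7% over all pairs and 76.5% beside narrow shared peaks. For the sites nearest to remote narrow knockout-only peaks it was 86.8% (95% interval 85.8 to 87.8%), so frequent widening was not particular to the extra peaks.

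The contrast was smaller within chromosomes. There, the median width difference was larger beside extra peaks than beside shared peaks on 18 of 20. The median of this contrast was 46.3 bp, less than the 99 bp between the pooled medians. The exceptions were chromosomes 9 (298 and 317 bp) and 16 (461.5 and 524.5 bp). The medians over the 20 chromosomes were 258 and 216 bp. On chromosome 1 the difference was 462 bp beside extra peaks and 373 bp beside shared ones, on chromosome 13 it was 429.5 and 347 bp, and on chromosome 5 it was 366 and 293 bp. On chromosome 4 the neighbours were narrower in the knockout in both sets, by medians of -63 and -77 bp. The sites nearest to remote narrow knockout-only peaks widened by 284 bp (95% interval 272 to 294 bp), and the widening beside extra peaks exceeded theirs on 15 of 20 chromosomes, by a median of 20.8 bp. Where a site was nearest to 2 or 3 extra peaks the median difference was 318.5 bp (95% interval 298 to 405 bp, 178 sites), against 293 bp at sites nearest to 1 (95% interval 279 to 311 bp). These intervals overlapped. Both values are pooled over chromosomes, and the part of the chromosomes in their difference was not tested.

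The widening was of similar size on the side of the extra peak and on the other side. Past the wild-type edge that faced the extra peak, the neighbour's knockout peak reached 126 bp as a median (95% interval 119 to 135 bp), and past the opposite edge 136 bp (95% interval 126 to 149 bp). These values are over 2645 extra peaks beside the 2462 paired sites. Within sites the facing reach minus the opposite reach came to -7 bp at the median (95% interval -18 to 3 bp). The facing edge reached further for 1282 extra peaks and the opposite edge for 1358. Beside narrow shared peaks the reaches were 81 and 88 bp, with a median difference of -9 bp, and for the sites nearest to remote narrow knockout-only peaks they were 138 and 127.5 bp, with a difference of 7 bp (95% interval -1 to 13 bp).

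At gaps under 1 kb the facing edge reached less far. Its median advance there was 93 bp (95% interval 80 to 113 bp), and that of the opposite edge was 134 bp (95% interval 122 to 157 bp). Between 1 and 5 kb the facing reach was 126 to 144 bp and the opposite reach 130 to 150 bp, with overlapping intervals in each class. Narrow shared peaks showed the same at gaps under 1 kb, with 50.5 and 93 bp. By the choice, no neighbour reached as far as the extra peak, and the part of this in the shorter facing reach was not tested. The gap to the paired wild-type site had a median of 2080 bp, and the gap to its knockout counterpart 1851 bp.

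**Figure D4:**
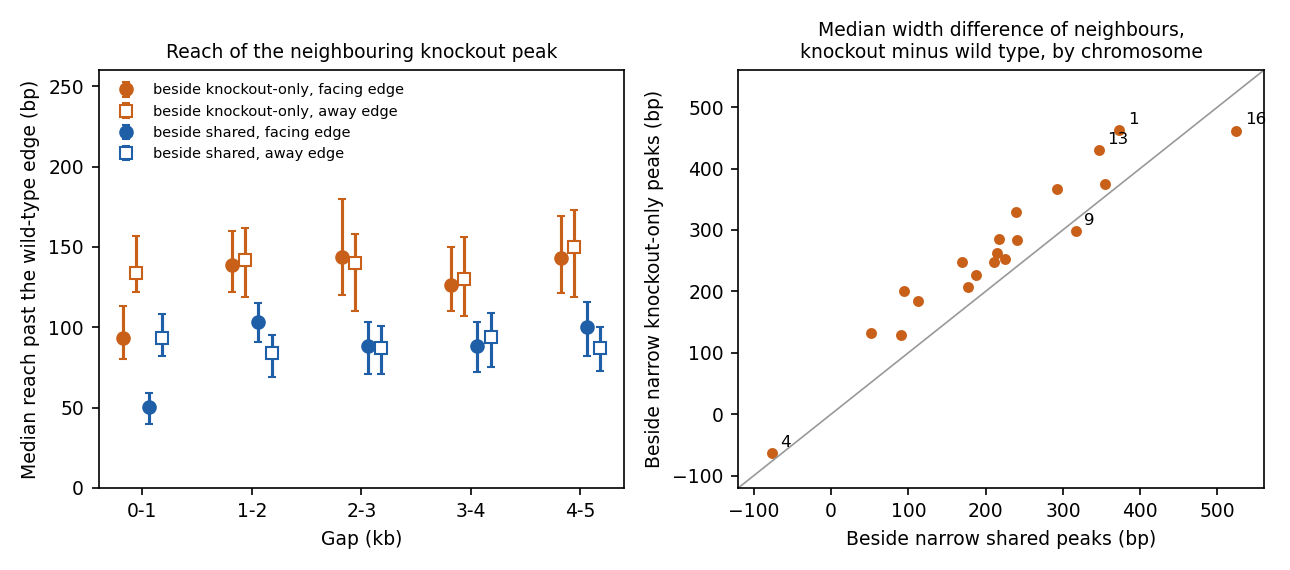
Left, median reach in bp of the neighbouring knockout peak past the wild-type edge that faces (filled circles) or lies away from (open squares) the narrow knockout-only peak (orange) or the narrow shared peak (blue), by gap in kb, with exact 95% intervals as bars. Right, median width difference of the neighbouring sites in bp, knockout minus wild type, for each of the 20 chromosomes as a point, where 18 points lie above the line of equality and chromosomes 9 and 16 below it.

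Chromosomes differed widely in the number of extra peaks. Chromosome 1 held 331 of them, or 17.2 per 100 wild-type peaks, chromosome 13 held 273 (15.6 per 100) and chromosome 16 held 162 (15.1 per 100). These 3 chromosomes carried 23.2% of the extra peaks and 17.9% of all knockout peaks. They were rich in narrow knockout-only peaks in general. Of those, 24.9, 29.3 and 25.8% on chromosomes 1, 13 and 16 lay near a wild-type site, against 31.8% over all chromosomes. At the low end chromosome 12 held 30, or 2.18 per 100 wild-type peaks, chromosome 6 held 55 (3.18 per 100) and chromosome 4 held 102 (3.22 per 100). Over the 20 chromosomes this rate followed the ratio of all knockout to all wild-type peaks, with Pearson's r at 0.916 and Spearman's rho at 0.923. The extra peaks are part of that ratio, so the relation is a description.

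The share of narrow knockout-only peaks that lay near a wild-type site had another order of chromosomes. It was highest on chromosome 4, at 46.8% (95% interval 40.02 to 53.7%), and on chromosome 15, at 41.9%, and lowest on the X chromosome, at 16% (95% interval 10.5 to 22.9%), and on chromosome 12, at 22.7%. The same shares of narrow shared peaks were 49.9%, 45.8%, 15.1% and 34.6%. Chromosomes with more wild-type peaks per Mb had higher shares in both sets, with a Pearson r of 0.867 (Spearman rho 0.881) for knockout-only and 0.923 (rho 0.913) for shared peaks over 20 chromosomes. Density ran from 4.10 wild-type peaks per Mb on the X chromosome to 25.6 on chromosome 11, between the outermost peaks. How often the neighbouring site was kept ran from 61.2% on chromosome 4 (60 of 98 sites) to 95.8% on the X chromosome (23 of 24 sites). Over all wild-type peaks of those chromosomes the shares were 64.2% and 91.95%.

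With the lists exchanged, the same choice gave narrow wild-type-only peaks beside knockout sites. There were 2556 of these, so that the extra peaks of the knockout outnumbered them 1.29 times (95% interval 1.23 to 1.36). The ratio was 1.54 for all narrow knockout-only to all narrow wild-type-only peaks, near or far, and 1.11 for all peaks of the lists. The ratio near sites was smaller than that of narrow peaks of one list in general. The ratio of 1.29 depended on the width limit. Under a limit of 1500 bp it was 0.905, and when the knockout list was cut to the 37667 widest peaks, the length of the wild-type list, it was 0.928. Wild-type-only peaks beside knockout sites were narrower, with a median of 1136 bp. They also lay nearer, at a median gap of 1800 bp (95% interval 1701 to 1867 bp), and 37.9% of the 6751 narrow wild-type-only peaks were within 5 kb of a knockout peak, against 31.8% for the knockout. Wild-type-only peaks were measured against 41912 knockout peaks, and knockout-only peaks against 37667 wild-type peaks. In 79.7% of 1 to 1 pairs the knockout peak was the wider. The part of these differences in the gaps, the shares and the ratio of 1.29 was not tested.

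The balance between the 2 kinds was reversed between chromosomes. There were 331 extra knockout peaks and 61 wild-type-only ones on chromosome 1, a ratio of 5.43 (95% interval 4.12 to 7.25), and 162 and 35 on chromosome 16, a ratio of 4.63. On chromosome 4 there were 102 and 401, a ratio of 0.254 (95% interval 0.203 to 0.317), and on chromosome 12 there were 30 and 110, a ratio of 0.273. The interval lay above 1 on 12 chromosomes and below 1 on 5, which were chromosomes 4, 6, 11, 12 and 17. It included 1 on chromosomes 2, 14 and X. With 1 H2A.Z library per genotype, these intervals cover counting error over peaks alone and are no test between genotypes. On every chromosome where all knockout peaks outnumbered all wild-type peaks, except chromosome 14, the ratio for peaks beside the other list's sites was also above 1 and larger. Sites present in both lists count on both sides of the ratio of all peaks and draw it towards 1. The extra peaks are also part of it, so the relation is a description.

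**Figure D5:**
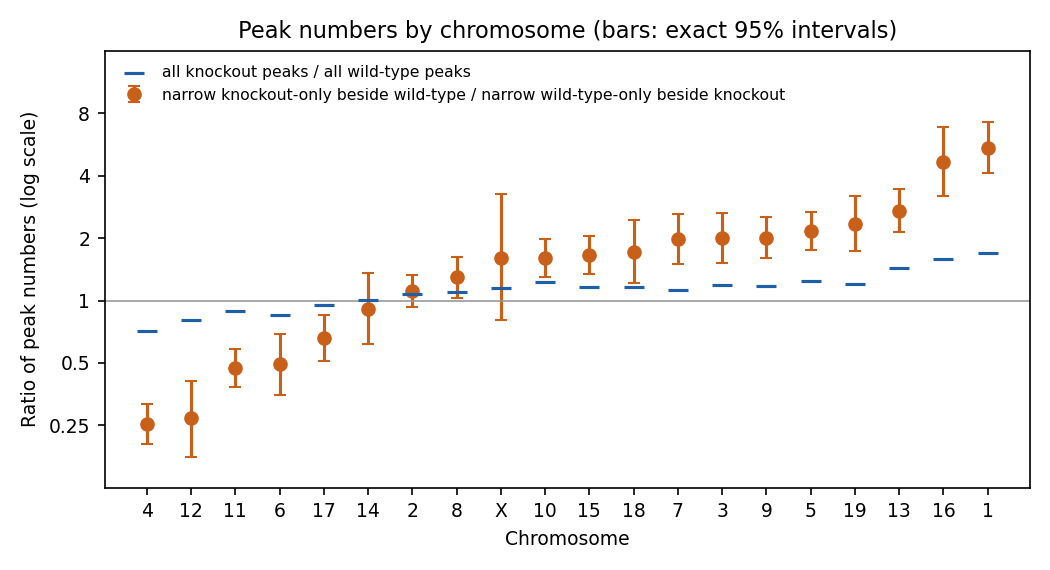
Ratio of narrow knockout-only peaks beside wild-type sites to narrow wild-type-only peaks beside knockout sites (orange, log axis, exact 95% intervals as bars) and ratio of all knockout to all wild-type peaks (blue dashes), by chromosome in order of the first ratio. The orange points run from 0.254 on chromosome 4 to 5.43 on chromosome 1, a wider range than the blue dashes, which run from 0.714 to 1.69.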

How the data were processed

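H2A.Z was mapped by chromatin immunoprecipitation and sequencing in wild-type and Anp32e knockout mouse embryonic fibroblasts. The authors deposited 1 list of peak positions per H2A.Z library, without height, score or count, and per the file headers both were saved from Galaxy. Per the submitters' processing notes HOMER, MACS 1.4.2, Bowtie 0.12.8 and CASAVA 1.8.2 were used on mm9. What each did, and whether the inputs were subtracted, is not given in the sources used here.

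Gaps, overlaps (at least 1 bp) and widths were computed with scipy 1.17.1, pandas 2.3.3 and numpy 2.4.6 under Python 3.11.15, and the number of 3299 peaks was obtained again with bedtools 2.31.1. The code was tested on made-up lists. The nearest non-overlapping wild-type peak was taken as the neighbour, and each neighbour was counted once for widths and shares. Shares have Clopper-Pearson intervals and medians have intervals from order statistics. The peaks, comparisons and sets were chosen with earlier results of these data known. Single regions were named as the extremes of gap, width, neighbour width, summed gap and number of peaks per neighbour, 3 of each, with chromosomes named by peaks per 100 wild-type peaks. No peak was removed for lying in repeats.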

Additional observations from a re-analysis of the deposited data

How the results depend on the processing

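Of 109 values recomputed under other settings, 69 stayed within the 95% interval of the value given (for the number of peaks, within 1.5 times), 38 moved outside it and 2 reversed. Those that reversed were the ratio to narrow wild-type-only peaks, 0.905 under a width limit of 1500 bp and 0.928 for the knockout list cut to the length of the wild-type list by leaving out its narrowest peaks, an alternative added after seeing the data. Gap limits of 2500 and 10000 bp gave 1928 and 5055 extra peaks, shares near a wild-type site of 18.6 and 48.7% (shared peaks 23.9 and 56.6%), both-sided shares of 8.87 and 27.6%, knockout gaps of 1079.5 and 3082 bp and ratios of 1.19 and 1.37. At 2500 bp the facing minus away reach was -20 bp (95% interval -34 to -6 bp), against -7 bp (95% interval -18 to 3 bp) at 5000 bp. A width limit of 1500 bp gave 2052 extra peaks, 29.8% near a site and a neighbour width difference of 284 bp, and one of 2500 bp gave a ratio of 1.403 and 37.5% of shared peaks. With peaks under 250 bp apart taken as shared, the shares were 30.5 and 37.2% and the knockout gap 2060.5 bp. Merging within 500 bp gave 28.2 and 34.2%, a neighbour width of 1631 bp beside shared peaks, 81.2% of neighbours kept and 14.2% both-sided. It also gave a reach difference of -19 bp (95% interval -32 to -5 bp), a knockout gap of 2509 bp and a ratio of 1.21. Without chromosomes 1, 4, 12, 13 and 16, 33.6% were near a site and the width difference was 273 bp. Medians of the chromosomes were 85.02% kept, 258 bp and a ratio of 1.63. The cut list gave 34.2% near a site, 81.2% kept, 328 bp and a knockout gap of 2113 bp. In each setting the knockout-only share near a site was below the shared one, with differences from -8.34 to -5.09 percentage points. Unless stated, the cause was not tested. No paired analysis was possible because neither genotype was replicated. The depth of both libraries is unknown, which limits what differences between the lists can show.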
